A study of Mus musculus with 8 samples.

Results

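The unfolded protein response and secretory machinery of the endoplasmic reticulum (ER) were followed as a module of 38 genes in lower crypts of the mouse jejunum. The genes were found by their symbols among the non-control probes of the arrays, 1 probe per gene being kept, and they stand among 30325 genes with a probe. Cells of the lower crypt, the base of the gland that renews the gut lining, were cut from fixed sections by laser capture, and their RNA was hybridised to 1 Agilent array per mouse. All 8 mice carried the Lgr5EGFP-IRES-CreERT2/+ reporter allele, were 4 to 6 weeks old and were given etoposide, which traps topoisomerase II on cut DNA, at 80 mg/kg into a vein. The 4 mice of the fasted group had gone without food for 24 h before the injection, the 4 mice of the fed group had not, and the labels give 2 males and 2 females in each. Tissue was taken 3 h after the injection, and mice of both groups had moistened food in that time, so that fasting cannot be told apart from fasting followed by renewed access to food. No mouse went without etoposide, and the comparison is between feeding states after the drug.

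Proteins that a cell secretes or places in its membranes enter the ER through the Sec61 channel, are folded there by chaperones, given sugars and disulfide bonds, and leave in vesicles with a COPII coat. When folding falls behind, the sensors IRE1, PERK and ATF6 in the ER membrane set off the unfolded protein response, in which IRE1 splices the Xbp1 messenger RNA and the resulting factor, with cleaved ATF6, raises genes for folding, transport and the degradation of misfolded proteins. Paneth and goblet cells of the crypt are professional secretory cells, and both Xbp1 and the gut form of IRE1, encoded by Ern2, are known for their role in them.

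Of the 38 genes 37 were measured well enough to be tested, 35 of them with a signal well above background on all 8 arrays. Edem3, a mannosidase-like factor of ER-associated degradation, rose clear of background on 2 of the fasted and 1 of the fed arrays and was not tested. Levels are log2 signals relative to the 75th percentile of each array, and a difference is the fasted minus the fed value from limma with labelled sex as a term. Markers of the captured site were well above background on all 8 arrays for Olfm4 (stem cells), Lyz1 (Paneth cells) and Muc2 (goblet cells), while Lgr5 was not on any. Per array, 53.2% to 65.4% of probes had such a signal. Fasted replicate 3 stood apart from the other arrays, with correlations across genes of 0.824 to 0.925 to them, the lowest share of probes above background of the fasted group (53.6%) and a scan session of its own. The array labelled female as fed replicate 4 had no Xist signal well above background and carried the Y-linked Eif2s3y, against its label. Nothing in the labels says more of how the mice relate than that they were biological replicates, and precision is limited by having 4 arrays a group.

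A feature that the arrays do not measure is a stress response motif. It was found in 9 of the 29 members with a promoter window (31%) and in 0.884% of all genes with one. The ER stress response element (ERSE), spelled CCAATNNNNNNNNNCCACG and bound by ATF6 and the XBP1 factor together with NF-Y, the related ERSE-II (ATTGGNCCACG) and the unfolded protein response element (UPRE, TGACGTGG) were searched on both strands of RefSeq promoter windows (GRCm38.p6) that run from 250 bases before to 50 after the start. The 3 motifs share letters, since ERSE and ERSE-II both end in CCACG and the UPRE holds the same run on its other strand. Of the 38 genes 29 had a window. ERSE stood in 7 of the 29 (24.1%), namely Calr, Canx, Creld2, Derl3, Ero1lb, Pdia6 and Syvn1, and in 0.137% of all 27025 genes of the table. ERSE-II stood in the window of Herpud1 only, and in 0.0444% of all genes, and the UPRE in that of Sec24d only, and in 0.714% of all genes. The stretches below show ERSE in the holders whose unadjusted p was under 0.05 (Creld2 and Canx), ERSE in a member whose difference was near 0 (Calr), and the sole carriers of the other motifs, read along the gene's strand with the match in capitals.
Creld2 (chr15:88819490-88819568, + strand): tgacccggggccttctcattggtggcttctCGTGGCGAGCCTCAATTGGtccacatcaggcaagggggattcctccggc
Canx (chr11:50325770-50325848, - strand): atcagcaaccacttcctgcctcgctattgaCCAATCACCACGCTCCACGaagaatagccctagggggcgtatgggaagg
Calr (chr8:84847045-84847123, - strand): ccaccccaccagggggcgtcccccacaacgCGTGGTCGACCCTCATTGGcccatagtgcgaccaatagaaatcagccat
Sec24d (chr3:123267440-123267495, + strand): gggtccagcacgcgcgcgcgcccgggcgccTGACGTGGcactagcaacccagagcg
Herpud1 (chr8:94386347-94386417, + strand): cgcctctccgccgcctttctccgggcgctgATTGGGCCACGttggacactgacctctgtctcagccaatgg
In Creld2 and Calr the element lies on the opposite strand, so that its CCACG end is read here as CGTGG. The match in Creld2 lies 126 to 108 bases before the start, that in Canx 145 to 127, that in Calr 162 to 144, that in Sec24d 26 to 19 and that in Herpud1 52 to 42. Of the 142 other pathway genes with a window, listed for this work, 4 held ERSE (2.82%), and they included the chaperones Hspa5 and Hsp90b1. ERSE-II stood in 2 of the 142 (1.41%). The UPRE stood in 10 (7.04%), a larger share than the 3.45% of the members.

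The question for the module was how its genes differed between fasted and fed crypts 3 h after etoposide. No member passed the test over all genes. Differences were positive for all 7 chaperones and for 6 of 8 tested degradation genes, for 3 of 6 translocon genes, and for 3 of 7 in the group of sensors with Xbp1 and the phosphatase subunit. Of the 37 tested members 27 had a positive difference and 10 a negative one, with a median of 0.26, where 44.6% of all 19495 genes tested had a positive difference and their median was -0.06. In limma's test with Benjamini-Hochberg adjustment 0 of 37 members passed (0% of all genes passed), and the smallest adjusted p was 0.787. An unadjusted p under 0.05 was found for 6 members (5.96% of all genes in either direction), all 6 on the fasted side, where 3.95% of all genes had one, and for 0 on the fed side, where 2.01% had one. The 4 fasted arrays lay above the 4 fed arrays without overlap in 5 members (3.00% of all genes) and below them in 1 (1.98% of all genes). With median scaling the groups did not overlap in 2 members, beside 4.14% of all genes.

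The shift of the module as a whole rested largely on fasted replicate 3. That array held the highest value of 21 of the 37 members, against 0 to 9 on any other array, and fed replicate 3 held the lowest value of 11. Averaged over the members, the deviation from each gene's mean was 0.31 on fasted replicate 3, and 0.06, 0.02 and -0.07 on fasted replicates 1, 2 and 4. On fed replicates 1 to 4 it was 0.06, -0.002, -0.26 and -0.12, so the groups overlapped. Without fasted replicate 3 the median difference of the members was 0.003 and 19 of 37 were positive, beside a median of -0.004 over all genes. Without fed replicate 3 the members' median was 0.153, beside -0.043. Within the 3 slides that carried an array of each group the members' medians were 0.00, 0.23 and 0.08, beside -0.07, -0.04 and -0.001 over all genes. Fasted replicate 3 was on none of these slides. In the second the fasted array is labelled male and the fed one female. The third held fed replicate 4, whose transcripts contradict its female label, beside a female fasted array. Within both, sex differed along with feeding state. With slide as a fixed block and no sex term, where fasted replicate 3 again has no fed partner, the members' median came to 0.083. With array weights it came to 0.071. In bulk captures, fewer cells of a type and less RNA per cell cannot be told apart.

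**Figure D1:**
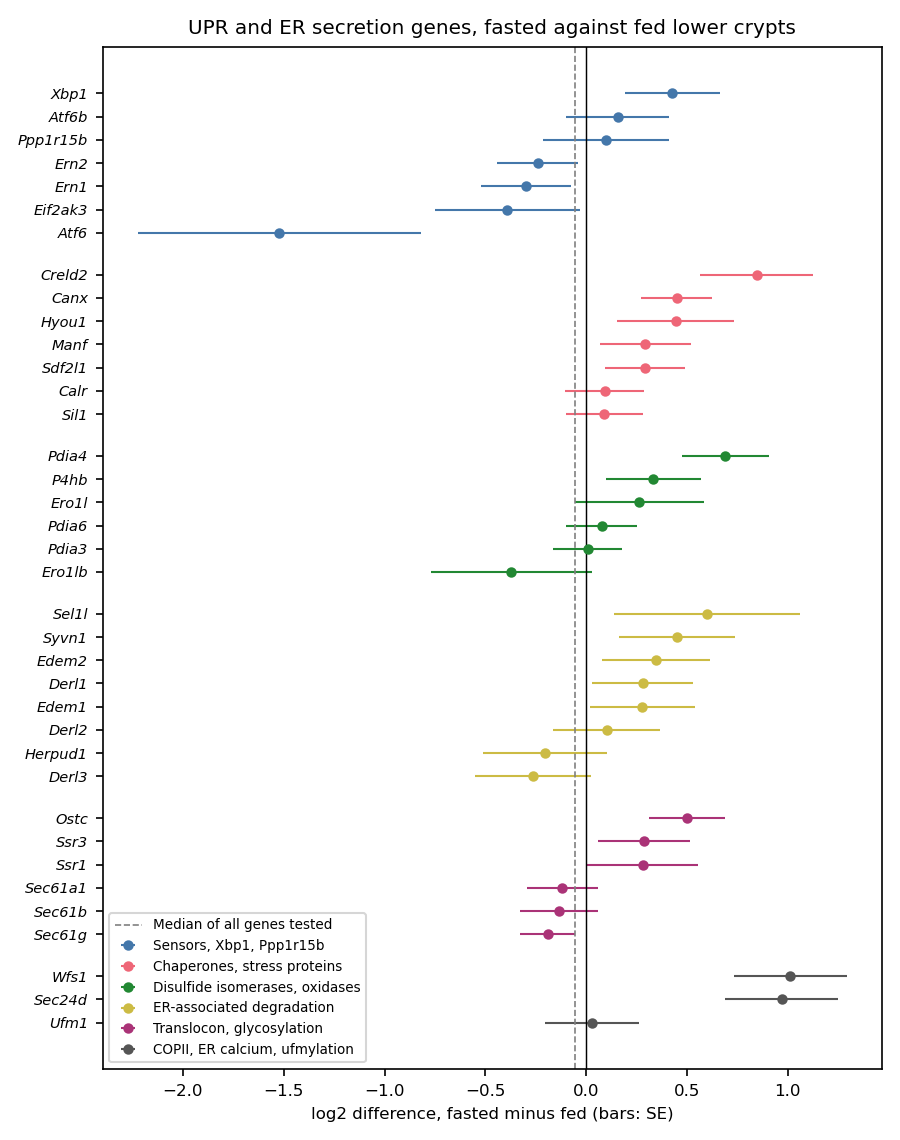
Difference between fasted and fed arrays for the 37 tested members, as points on a log2 scale with the standard error of limma's fit as bars, coloured by role. Wfs1 (1.01) and Sec24d (0.97) lie farthest to the right and Atf6 (-1.52, with 2 fasted arrays not well above background) farthest to the left, and most chaperone and degradation genes lie right of the dashed median of all genes (-0.06).

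**Figure D2:**
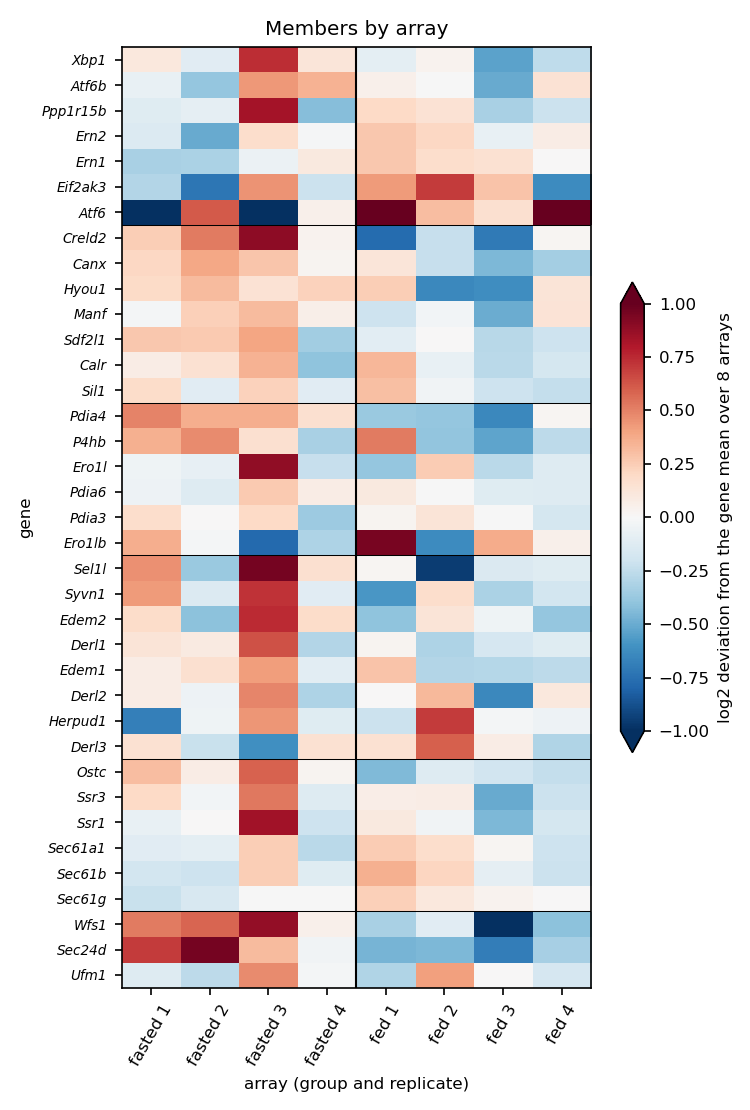
Deviation of each member from its own mean over the 8 arrays, on a log2 scale, with a column per array and the colour scale ending at 1 in each direction. The column of fasted replicate 3 holds the highest value of 21 of 37 members and the lowest of 3 (Atf6, Ero1lb and Derl3).

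The 2 largest positive differences belonged to Wfs1, an ER membrane protein of calcium balance that the stress response raises, and Sec24d, a cargo-binding subunit of the COPII coat. Wfs1 was at 1.03, 1.09, 1.39 and 0.56 on fasted replicates 1 to 4 and at 0.18, 0.39, -0.66 and 0.10 on fed replicates 1 to 4. The lowest fasted array thus lay above the highest fed one, and the difference was 1.01 (SE 0.28), or 2.02-fold. Within the shared slides it was 0.84, 1.75 and 0.46. Limma's unadjusted p was 0.00635 and the adjusted p 0.787. The exact 2-sided permutation p was 0.0286, the smallest that 4 against 4 arrays can give. Every gene whose groups do not overlap gets that value, as 4.98% of all genes did, so it adds nothing to the lack of overlap. Wfs1 kept an unadjusted p under 0.05 in all 26 alternatives run, with differences of 0.80 to 1.13. The alternatives reuse the same arrays, and that with a threshold of 0.1 repeats the main fit. Counts over them are thus no independent support, here or for the genes below. Its probe lies on chromosome 5 from 37357424 to 37357483 in mm9.

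For Sec24d the values were -0.95, -0.70, -1.33 and -1.68 on fasted replicates 1 to 4 and -2.12, -2.10, -2.34 and -1.98 on the fed ones. The groups did not overlap, and the difference was 0.97 (SE 0.28), or 1.96-fold, with an unadjusted p of 0.00805 and an adjusted p of 0.787 in limma. It was 1.17 and 1.64 within the first 2 shared slides and 0.30 within the last. All 26 alternatives gave an unadjusted p under 0.05, and the lowest difference among them was 0.63. The probe lies on chromosome 3 from 123068106 to 123068165 in mm9. Ufm1, the small protein that is attached to ER ribosomes in ufmylation, differed by 0.03 (SE 0.23).

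All 7 chaperones and secreted stress proteins had a positive difference, with a median of 0.29. Creld2, a secreted disulfide isomerase-like protein that is an established marker of ER stress, was at 1.096, 1.37, 1.74 and 0.88 on fasted replicates 1 to 4 and at 0.08, 0.62, 0.14 and 0.87 on fed replicates 1 to 4. The groups were apart only by the small gap between the replicates 4, which shared a slide, and the difference was 0.85 (SE 0.28), or 1.80-fold (unadjusted p of 0.0161 in limma). Within the shared slides Creld2 differed by 1.02, 1.23 and 0.01. Its probe lies on chromosome 15 from 88656997 to 88657056 in mm9.

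Calnexin, the membrane lectin that holds glycoproteins until they fold, is encoded by Canx. It read 2.42, 2.60, 2.49 and 2.24 in fasted and 2.33, 1.98, 1.76 and 1.87 in fed crypts, replicates 1 to 4. Fed replicate 1 reached into the fasted range, and the difference was 0.45 (SE 0.18, unadjusted p of 0.0334 in limma). Calr, the soluble partner of calnexin, differed by 0.09 (SE 0.20). Hyou1, which exchanges the nucleotide of the chaperone BiP, differed by 0.44 (SE 0.29), and Sil1, which has the same task, by 0.09 (SE 0.19). The secreted growth factor Manf and the stress-responsive Sdf2l1 each differed by 0.29, with SE of 0.23 and 0.20. None of the 7 passed over all genes, and without fasted replicate 3 Calr and Sil1 turned to -0.079 and -0.017.

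Of the 6 disulfide isomerases and oxidases 5 had a positive difference, with a median of 0.17, though of those 5 Pdia6 changed sign in 4 of 26 alternatives, to -0.121 at the lowest, Pdia3 in 8, to -0.142, and Ero1l in 2, to -0.036. Pdia4, a disulfide isomerase with several thioredoxin-like domains, was at 1.26, 1.13, 1.12 and 0.92 on fasted replicates 1 to 4 and at 0.39, 0.38, 0.12 and 0.79 on fed ones. Its fasted values stood close together (mean 1.11 ± 0.14, SD, n = 4) and above the fed ones (0.42 ± 0.28, SD, n = 4). The difference of 0.69 (SE 0.22), or 1.61-fold, had an unadjusted p of 0.0122 in limma and did not pass over all genes. It was 0.87, 1.01 and 0.14 within the shared slides. The probe lies on chromosome 6 from 47746516 to 47746575 in mm9. The family members Pdia3 and Pdia6 differed by 0.01 (SE 0.17) and 0.08 (SE 0.18), and P4hb by 0.33 (SE 0.24). The oxidases that recharge these enzymes were at 0.26 (SE 0.32) for Ero1l, now named Ero1a, and at -0.37 (SE 0.40) for Ero1lb, now Ero1b. Without fasted replicate 3 the value for Ero1l was -0.014.

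In ER-associated degradation, which returns misfolded proteins to the cytosol, 6 of 8 tested genes had a positive difference, with a median of 0.28, and 0 had an unadjusted p under 0.05. Syvn1, the ubiquitin ligase HRD1 at the heart of the pathway, was at 0.75, 0.19, 1.05 and 0.22 on fasted replicates 1 to 4 and at -0.25, 0.51, 0.02 and 0.15 on fed ones. The groups overlapped, and the difference was 0.45 (SE 0.29), which became 0.262 without fasted replicate 3 and 0.224 with array weights. Sel1l, the partner of HRD1, differed by 0.60 (SE 0.46), its probe being well above background on 4 fasted but only 2 fed arrays. Edem2 and Edem1, which trim mannose from doomed glycoproteins, differed by 0.35 (SE 0.27) and 0.28 (SE 0.26). Of the Derlins, membrane proteins of the exit channel, Derl1 was at 0.28, Derl2 at 0.10 and Derl3 at -0.26. Herpud1, which organises the HRD1 complex and is a strong target of the stress response, was at -0.20 (SE 0.31). Derl2 had 3 probes past the filter, and a second probe differed by 0.29 (means). The last cleared background on 4 fasted and 0 fed arrays, so it passed through the fasted arrays alone. In the main setting it differed by at least 1.29-fold, with measured means of -3.40 and -5.53.

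The translocon group split, with 3 positive and 3 negative differences. Ostc, a subunit of the oligosaccharyltransferase that adds sugars during translocation, was at 3.28, 3.04, 3.55 and 2.99 in fasted crypts and at 2.52, 2.84, 2.77 and 2.73 in fed ones, replicates 1 to 4. The groups did not overlap, and the difference was 0.50 (SE 0.19), or 1.41-fold, with an unadjusted p of 0.0271 in limma. Within the shared slides it was 0.75, 0.27 and 0.26, and the probe lies on chromosome 3 from 130406339 to 130406398 in mm9. Ssr3 and Ssr1, subunits of the translocon-associated complex, differed by 0.29 (SE 0.23) and 0.28 (SE 0.28), and a second probe for Ssr1 differed by -0.40.

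The 3 genes of the channel itself had small negative differences, all of which were positive with quantile normalization. Sec61g, its gamma subunit, was at 5.32, 5.38, 5.54 and 5.54 on fasted replicates 1 to 4 and at 5.78, 5.65, 5.58 and 5.54 on fed ones. Every fed array thus lay above every fasted one, by a margin under 0.01 at the closest, and the difference was -0.19 (SE 0.14), which turned to 0.087, 0.121 and 0.027 with quantile normalization, with normexp and quantile normalization, and in the authors' matrix. Sec61b and Sec61a1 differed by -0.14 (SE 0.19) and -0.12 (SE 0.18). Over the 26 alternatives Sec61a1 ran from -0.31 to 0.067 and Sec61b from -0.33 to 0.01.

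**Figure D3:**
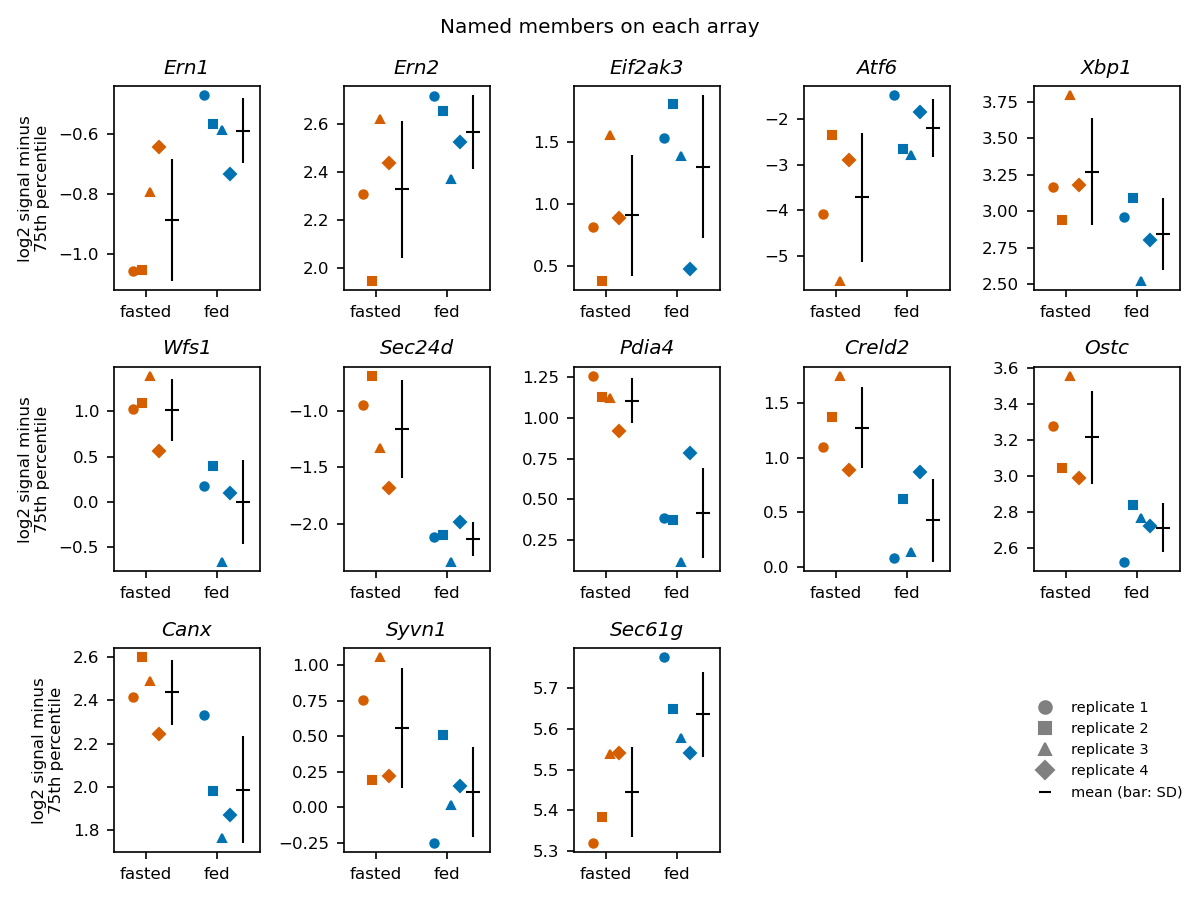
Log2 signal relative to the array's 75th percentile for 13 members on every array, with a marker shape per replicate number and the mean with its SD beside each group; each panel has its own vertical scale, which does not start at 0. Wfs1, Sec24d, Pdia4, Creld2 and Ostc show all 4 fasted arrays above all 4 fed ones, and in Ern1, Ern2, Eif2ak3 and Atf6 the fasted mean is the lower.

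Among the sensors, all of Ern1, Ern2, Eif2ak3 and Atf6 had a negative difference, in the main setting and in every alternative in which they were fitted, and none passed the test. Ern1, the IRE1 form found in most tissues, was at -1.06, -1.05, -0.79 and -0.64 on fasted replicates 1 to 4 and at -0.47, -0.56, -0.59 and -0.73 on fed ones. Only fasted replicate 4 and fed replicate 4 crossed, and the difference was -0.30 (SE 0.22, exact 2-sided permutation p = 0.0571). Ern2, the gut form, read 2.31, 1.94, 2.62 and 2.43 in fasted and 2.71, 2.65, 2.37 and 2.52 in fed crypts, a difference of -0.24 (SE 0.20) between overlapping groups that was -0.102 without fasted replicate 2.

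Eif2ak3 encodes PERK, the kinase that slows translation under ER stress. Its values were 0.81, 0.38, 1.55 and 0.89 on fasted replicates 1 to 4 and 1.53, 1.80, 1.39 and 0.48 on fed ones. The ranges overlapped almost wholly, at a difference of -0.39 (SE 0.36), and it was -0.168 without fasted replicate 2, -0.659 without fasted replicate 3, -0.20 without fed replicate 2 and -0.708 without fed replicate 4. Atf6, the sensor that is cut to release a transcription factor, was at -4.07, -2.35, -5.55 and -2.91 in fasted and at -1.49, -2.65, -2.80 and -1.85 in fed crypts. Its probe was not well above background on fasted replicates 1 and 3, which gave the lowest values, and the difference of -1.52 (SE 0.70) came with an unadjusted p of 0.0608 in limma. Its size is uncertain: it was -0.918 without fasted replicate 3, -0.437 with normexp and -2.37 in the authors' matrix. The related Atf6b differed by 0.16 (SE 0.26) and Ppp1r15b, which directs the phosphatase that reverses PERK's action, by 0.10 (SE 0.31).

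Xbp1, the target of IRE1 and main regulator of secretory capacity, lay on the side of the folding genes. It was at 3.16, 2.94, 3.79 and 3.18 on fasted replicates 1 to 4 and at 2.96, 3.09, 2.52 and 2.80 on fed ones. The highest fed value passed only fasted replicate 2, and the difference was 0.43 (SE 0.24), or 1.34-fold, with an unadjusted p of 0.106 in limma and an exact 2-sided permutation p of 0.0857. Within the shared slides it was 0.20, 0.42 and 0.38, and without fasted replicate 3 it was 0.224. The probe reads total Xbp1 signal and was not designed to tell its spliced form from the unspliced one as far as the files state.

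Across the module, 9 of 37 members lay higher in the fasted array within all 3 shared slides (17.9% of all genes did) and 5 lay lower (21.8% of all genes). By label or by transcripts, sex also differed within the slides of fasted replicates 2 and 4. Those 9 were Wfs1, Sec24d, Pdia4, Creld2, Ostc, Canx, Xbp1, Syvn1 and Ssr3. Where the sign was followed through 26 alternatives, Pdia4 and Creld2 kept an unadjusted p under 0.05 in 25 of them, Ostc in 19 and Canx in 15. The 7 holders of ERSE spread from -0.37 (Ero1lb) and -0.26 (Derl3) to 0.45 (Canx and Syvn1) and 0.85 (Creld2).

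**Figure D4:**
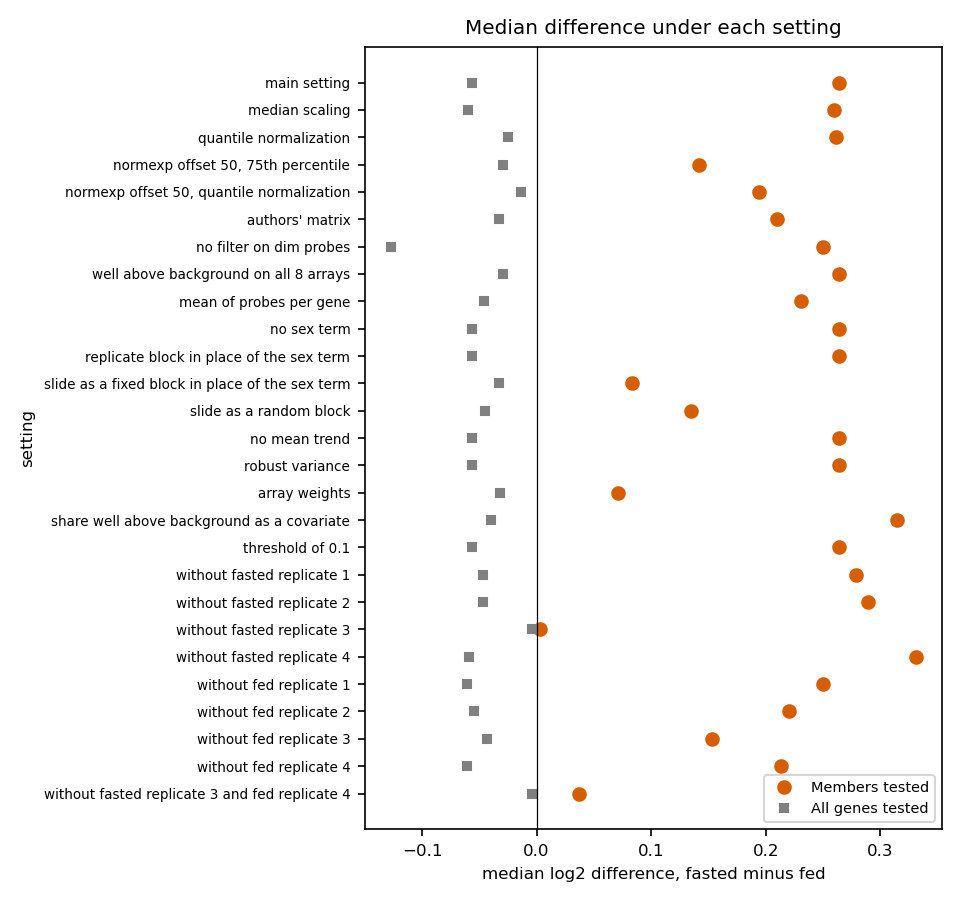
Median log2 difference, fasted minus fed, of the tested members (circles) and of all genes tested (squares) in the main setting and in each of 26 alternatives. The members' median is 0.264 in the main setting, falls to 0.003 without fasted replicate 3 and to 0.071 with array weights, and is not below 0 in any setting.

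Of 173 tested genes from a list of 182 outside the module, 111 had a positive and 62 a negative difference, with a median of 0.18. None passed over all genes in limma's test. In it 12 had an unadjusted p under 0.05 on the fasted side (3.95% of all genes) and 3 on the fed side (2.01% of all genes). The groups did not overlap in 10 and 2 (6.98% together, where 4.98% of all genes did not). Genes of ER to Golgi transport were positive in 35 of 46, with a median of 0.23, translocation and glycosylation genes in 32 of 46 (median 0.19), and other chaperones and isomerases in 12 of 30 (median -0.16). As for the members, fasted replicate 3 stood highest, with mean deviations of 0.27 for the transport and 0.40 for the translocation genes. On the other fasted arrays these ran from -0.08 to 0.10 and from -0.13 to 0.13. In both lists the fasted and fed arrays overlapped.

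The smallest p on the fasted side belonged to Dpm1, which makes the mannose donor of the ER, Alg2, which builds the sugar chain, and Ufl1, the ligase for Ufm1. Dpm1 cleared background on 4 fasted and 0 fed arrays, so it passed the filter through the fasted arrays alone. It is among the 12 and the 10 genes counted above on the fasted side. In the main setting it stood at least 1.74-fold higher in fasted crypts (adjusted p = 0.787 in limma). Measured means were -2.88 in fasted and -4.53 in fed crypts. That bound holds for the main setting only, as the log2 difference was 0.41 with normexp and 0.37 with normexp and quantile normalization. Alg2 differed by 1.20 (SE 0.38) and Ufl1 by 1.42 (SE 0.46). Each was well above background on 4 fasted and 3 fed arrays, and with normexp they differed by 0.63 and 0.71. Leading the fed side were Pdia2, an isomerase best known from the pancreas, at -1.30 (SE 0.46), Sec31b at -1.81 (SE 0.68), and Ppib, the ER cyclophilin, at -0.38 (SE 0.17). The Sec31b probe was well above background on 2 fasted and 4 fed arrays, and its difference with normexp was -0.65.

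Hspa5, which encodes the master chaperone BiP, was at 4.76, 4.75, 5.35 and 4.51 on fasted and at 4.66, 4.62, 4.30 and 4.58 on fed replicates 1 to 4, a difference of 0.30 (SE 0.21) between overlapping groups, and Hsp90b1, which encodes GRP94, by 0.53 (SE 0.24, unadjusted p of 0.0596 in limma). Without fasted replicate 3 these became 0.095 and 0.306, and with array weights 0.105 and 0.235. Of the PERK branch, Atf4 was at 0.04 (SE 0.15), Ddit3, the death-linked factor CHOP, at 0.24 (SE 0.34) and Ppp1r15a, the inducible phosphatase subunit, at -0.16 (SE 0.30). Each of these 3 changed sign in at least 1 alternative.

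Markers of other cell types also differed between the groups, none past the adjusted threshold. All 24 tested markers of absorptive enterocytes, cells that mature above the crypt base, had a positive difference (median 1.15). In limma 17 of them had an unadjusted p under 0.05, as 3.95% of all genes did on the fasted side. Their mean deviation ran from -0.28 to 1.28 on the fasted arrays and from -1.37 to -0.19 on the fed ones. On fasted replicates 1 to 4 it was 1.11, 1.28, -0.28 and 0.42. For Paneth cells 13 of 14 tested markers had a negative difference (median -0.43), with mean deviations of -0.42 to 0.01 on fasted and 0.06 to 0.41 on fed arrays. Goblet cell markers were lower in 9 of 13 (median -0.16) and ran from -0.32 to 0.29 and from -0.18 to 0.14. Of 9 plasma cell markers, another cell type rich in ER, 7 were tested, with a median of 0.04 and mean deviations of -0.52 to 0.32 on fasted and -0.16 to 0.40 on fed arrays. All 7 tested pancreatic acinar markers were lower in fasted crypts (median -0.59), from -0.90 to 0.41 on fasted and from 0.00 to 0.60 on fed arrays. The part of these cell types in the members' differences was not tested.

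Whether the difference depended on labelled sex was tested as an interaction. In limma 0 of 37 members passed (0% of all genes), and 0 had an unadjusted p under 0.05 (3.17% of all genes did). The smallest belonged to Eif2ak3, at an interaction of -1.36 (SE 0.58, unadjusted p of 0.0503). Each sex and feeding state holds 2 arrays, and the array whose transcripts contradict its label is among them.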

How the data were processed

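Scanner files of 8 single-colour (Cy5) arrays were used. Per the file headers, the authors extracted spot intensities with Agilent Feature Extraction 11.5.1.1, with probe positions in mm9. A matrix deposited by the authors, on a log2 scale, has column medians from 7.73 to 8.33, and its scaling and centring stay unknown. Control and outlier spots were left out, spots of a probe averaged (39429 probes), and log2 processed signals taken relative to each array's 75th percentile. Probes that the scanner software called well above background on 4 or more of 8 arrays were kept, the brightest per gene. Names came from RefSeq accessions for 27655 probes and otherwise from the files. Limma 3.58.1 in R 4.3.3 (lmFit, eBayes with a mean trend) fitted group and labelled sex over 19495 genes, checked on simulated data, with a Benjamini-Hochberg threshold of 0.05. Fold bounds take the dim group at the higher of its own signal and the array's lowest signal well above background. Members and lists were chosen with earlier results of these data known. Values per array are given for Ern1, Ern2, Eif2ak3, Atf6 and Xbp1, the 6 members with the smallest p, the smallest p in each role, and members without overlap; from the other pathway genes, differences are given for Hspa5, Hsp90b1, Atf4, Ddit3, Ppp1r15a and the 3 smallest p each way. Protein sequences were not used here.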

Additional observations from a re-analysis of the deposited data

Results flagged for a closer look

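In 3 of 74 groups of 4 arrays checked over the tested members, 1 array lay far from the others, the gap to its nearest neighbour taking more of the group's range than Dixon's critical value allows; chance gives this in about 1 in 20 groups. Ero1l stood at 0.13 on fasted replicate 3, with the other fasted arrays between -0.996 and -0.81. Sel1l stood at -4.45 on fed replicate 2, where its probe was not well above background, with the other fed arrays between -3.64 and -3.48. Edem1 stood at -0.81 on fed replicate 1, with the other fed arrays between -1.39 and -1.35.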

How the results depend on the processing

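In limma the counts of genes and of members passing were 0 in all 26 alternatives, where 454 to 5551 genes had an unadjusted p under 0.05. The 5551 came with the share of probes above background as a covariate. There limma's smallest adjusted p was 0.0624, for the members as for all genes. In that fit 10 members had an unadjusted p under 0.05 on the fasted side and 1 on the fed side. Their median was 0.315, beside -0.04 over all genes. The threshold of 0.1 was applied to the main fit only. For the interaction 0 genes passed in the 3 alternatives run for it. The members' median of 0.264 became 0.083 with slide as a fixed block, 0.071 with array weights and 0.037 without fasted replicate 3 and fed replicate 4, and ran from 0.003 (without fasted replicate 3) to 0.331 when 1 array was left out. The count of 6 members without overlap (4.98% of all genes) was 2 with median scaling (4.14% of all genes) and 11 without fasted replicate 3 and fed replicate 4 (15.9% of all genes), and ran from 6 to 10 when 1 array was left out, where fewer arrays make separation easier (percent of all genes 5.89 to 12.2). Sec61g turned to 0.087 with quantile normalization, 0.121 with normexp and quantile normalization and 0.027 in the authors' matrix. Ddit3 turned to -0.04 with slide as a fixed block and Ppp1r15a to 0.033, and to 0.011 with slide as a random block; Atf4 turned to -0.043 with array weights and -0.001 with the share of probes above background as a covariate. With 1 array left out Atf4 ran from -0.063 to 0.1 and Ppp1r15a from -0.363 to 0.126. Searching the forward strand only left 5 of 9 members with a promoter motif, beside 0.481% of all genes with a window. The causes were not tested, beyond fewer arrays or strands. Nothing in the labels says that the replicate numbers pair the arrays, and correlations of same-numbered deviations ran from -0.469 to 0.606. With a replicate block in place of the sex term 0 members passed and the median stayed at 0.264. Arrays that shared a slide deviated together, with correlations of 0.372, 0.535 and 0.606 and a consensus of 0.698 over slides. Some arrays on different slides did so about as strongly, such as fasted 2 with fed 4 (0.502) and fasted 3 with fed 2 (0.458). Others ran down to -0.51 (fasted 3 with fed 4). Deviations were taken from each group's mean, so each array has to run against some arrays of the other group. The part of the slide in these deviations was not tested. The main comparison has no slide term. With slide as a random block the median was 0.135 and 0 members passed.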
